A study of Mus musculus with 6 samples.

Results

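DNA damage checkpoint signalling was examined through 10 genes, Atr, Atrip, Rad9a, Rad17, Chek1, Atm, Mdc1, Trp53bp1, Chek2 and Trp53. The set was defined by gene symbol, with no expression value in the rule, but it was chosen with earlier results of these data known. All 10 were measured, of 25206 genes in the deposited table. The cells were alveolar macrophages, which live in the airspaces and clear particles, obtained by bronchoalveolar lavage without infection from Zcchc6+/+ mice (3 arrays) and Zcchc6-/- mice (3 arrays). Zcchc6 encodes an RNA terminal uridyltransferase. The mutant allele lacks exons 16 and 17, after germline excision by an EIIa-driven Cre that was then bred out. Mice of both sexes, 8 to 16 weeks of age, were used in the study, and no sorting step after lavage is described. The labels do not say whether the numbered samples are separate mice, and p-values therefore measure only the spread among these samples, some of which may be technical.

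Checkpoint signalling holds the cell cycle while DNA is damaged or replication stalls. The kinase ATR, bound to its partner ATRIP, is recruited to single-stranded DNA coated by replication protein A, is activated with the help of the 9-1-1 clamp that RAD17 loads, and phosphorylates CHK1. The kinase ATM answers double-strand breaks, where MDC1 and 53BP1 gather on marked chromatin, and it phosphorylates CHK2 and p53. Much of this regulation acts on proteins, which arrays of mRNA do not measure.

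Atr and Chek1, the kinase pair of the replication stress branch, read higher in every Zcchc6-/- array than in any Zcchc6+/+ array, by 1.22-fold and 1.33-fold. Atrip read lower in every Zcchc6-/- array, at 91.1% of the wildtype signal. The other 7 genes overlapped between the genotypes, and their fold changes lay between 0.948 and 1.11. None of the 10 passed an adjusted p of 0.05 in limma, the moderated linear model fitted over all genes with Benjamini-Hochberg adjustment, where 0% of all genes passed. The lowest adjusted p among the 10 genes was 0.973. At an unadjusted p under 0.05 there were 2 of them, Atr and Chek1, against 5.03% of all genes. The genotypes did not overlap for 3 of the 10, against 10.2% of all genes, with 2 higher against 5.03% and 1 lower against 5.15%. A higher mean in Zcchc6-/- macrophages was seen for 6 of the 10, against 48.2% of all genes, and the median log2 fold change was 0.055, against -0.0063 over all genes.

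The values are log2 expression from the Robust Multiarray Average (RMA), which subtracts background, gives all arrays a common distribution and joins the probes of a gene into 1 value. They carry no detection call, and probes differ in brightness, so levels were compared within a gene only. Every checkpoint gene lay above the median of the table, 4.41, on all 6 arrays. The correlation between arrays, taken over genes that are no independent replicates, was 0.979 to 0.993. Zcchc6 itself read 8.72, 8.77 and 8.65 in Zcchc6+/+ against 8.22, 7.69 and 8.13 in Zcchc6-/- arrays (log2 fold change -0.70, standard error (SE) 0.15, limma adjusted p = 0.774). The groups did not overlap for Zcchc6, and where its probes lie relative to the deleted exons was not examined. The 12 alveolar macrophage markers read between 7.92 and 12.01 on every array, while 15 T cell markers averaged 4.29 to 4.69 in Zcchc6+/+ arrays but 6.56, 4.46 and 4.52 in Zcchc6-/- arrays. Zcchc6-/- replicate 1 therefore stood apart, with Cd3e at 8.03 and Cd3g at 7.71, and values without it are given wherever it changed a direction. It also had the widest spread of values relative to the median array, an interquartile range of 0.273, followed by Zcchc6-/- replicate 2 at 0.227, against 0.155 to 0.179 in the other 4 arrays. Their mean correlations with the other arrays were 0.982 and 0.987, against 0.990 in the rest, and the part of array quality in the checkpoint values was not tested. Zcchc6+/+ replicate 1 and Zcchc6-/- replicate 2 had low Xist, at 3.78 and 3.27, against 10.04 to 10.73 in the other 4 arrays. The other sex marker, Ddx3y, named after its values were seen, read 6.59 and 6.87 in these arrays and 2.28 to 2.96 in the rest. Each genotype thus held samples of both sexes. With Xist as a covariate the log2 fold changes were 0.29 (SE 0.11) for Atr and 0.41 (SE 0.12) for Chek1. In these RNAs from lavage cells, a different share of a cell type and a different amount of RNA per cell cannot be told apart.

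Promoter sequence was read for the genes from the RefSeq table of GRCm38.p6, which gives 250 bases before and 50 bases after each annotated start. It held a promoter for 9 of the 10 genes, and Rad9a was not matched. The letters TTCCCGC, the core of the site bound by E2F factors that drive genes of DNA synthesis, were searched on both strands. They occurred in 4 of the 9 promoters, or 44.4%, in 5 of 27 promoters of the other checkpoint genes, or 18.5%, and in 4.6% of all 32851 promoters in the table. The windows are shown so that Chek1, which read higher and holds the letters, can be set beside the genes that hold them and overlapped between genotypes. Each is 30 bases on the strand of the gene, with capitals marking TTCCCGC or its reverse complement.
Chek1: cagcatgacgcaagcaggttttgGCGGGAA
Atm: tagagccggaaGCGGGAAggcgtgcgtaca
Chek2: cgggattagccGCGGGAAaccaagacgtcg
Mdc1, nearer the start: cttcagcctgtTTCCCGCcggtagccgcac
Mdc1, farther from the start: tggaaatctgcGCGGGAAgtagtccgtgga

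The Chek1 window (chr9:36726609-36726638, minus strand) has its first capital 43 bases after the annotated start, and the Atm window (chr9:53536638-53536667, minus strand) 15 bases after it. In Chek2 (chr5:110839820-110839849, plus strand) the distance was 152 bases before the start. The Mdc1 windows (chr17:35841472-35841501 and chr17:35841358-35841387, plus strand) lay 15 and 129 bases before it. The promoters of Atr, Atrip, Trp53, Trp53bp1 and Rad17 did not hold these letters in this window. The mean was higher in Zcchc6-/- macrophages for all 4 genes with the letters, of which only Chek1 did not overlap, and for Atr and Trp53bp1 among the 5 genes without them. This is a description, with no test. A second form, TTGGCGC, was in 0 of the 9 promoters, 6 of the 27 of other checkpoint genes, or 22.2%, and 2.45% of all. The box CCAAT, the letters read by NF-Y, was in 5 of the 9 promoters, or 55.6%, in 51.9% of those of other checkpoint genes and in 37.4% of all. A match describes letters only and shows no bound factor.

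Atr, which encodes the apical kinase of the replication stress response, read 5.81, 5.71 and 5.88 in the Zcchc6+/+ arrays against 6.21, 5.97 and 6.10 in the Zcchc6-/- arrays. The lowest Zcchc6-/- value thus lay just above the highest Zcchc6+/+ value. The means were 5.80 ± 0.088 (SD, n = 3) and 6.09 ± 0.12 (SD, n = 3). The log2 fold change was 0.29 (SE 0.11, 95% interval 0.035 to 0.55, adjusted p = 0.973 from limma). The intervals given here are those of single genes and are not widened for the number of genes tested. With each array left out in turn, the Atr log2 fold change stayed between 0.23 and 0.35. RefSeq annotates 3 genes that overlap the Atr locus, among them 1700065D16Rik and Gm16794, and whether the Atr probes read them was not examined.

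Atrip, whose product carries ATR to single-stranded DNA, ran the other way from its kinase. It read 6.08, 6.15 and 6.12 in Zcchc6+/+ against 5.99, 6.0 and 5.97 in Zcchc6-/- macrophages, so that the groups did not overlap and each was tight. The log2 fold change was -0.13 (SE 0.092, 95% interval -0.35 to 0.081, adjusted p = 0.997 from limma), and its leave-one-out values ran from -0.15 to -0.12. The raw spread of Atrip within genotypes, a pooled SD of 0.027, was far below the median of all genes, 0.17, and limma drew its variance upwards. With unmoderated variances the SE of Atrip was 0.022 and its adjusted p 0.802. RefSeq annotates a readthrough transcript, Atrip-trex1, over the same locus, and whether the Atrip probes read it was not examined.

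Chek1 encodes the effector kinase that ATR activates, and its mRNA is known to accumulate in S and G2 phase of cycling cells. It read 5.47, 5.09 and 5.36 in Zcchc6+/+ against 5.56, 5.98 and 5.61 in Zcchc6-/- arrays. The highest Zcchc6+/+ and lowest Zcchc6-/- values were close to each other, and Zcchc6+/+ replicate 2 and Zcchc6-/- replicate 2 were the extremes. Within each genotype the highest value, 5.47 and 5.98, was in the array with low Xist. The means were 5.30 ± 0.20 (SD, n = 3) and 5.72 ± 0.23 (SD, n = 3), a log2 fold change of 0.41 (SE 0.16, 95% interval 0.047 to 0.78, adjusted p = 0.981 from limma). Without Zcchc6-/- replicate 2 the Chek1 log2 fold change was 0.28, while omitting Zcchc6+/+ replicate 1 gave 0.50.

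**Figure D1:**
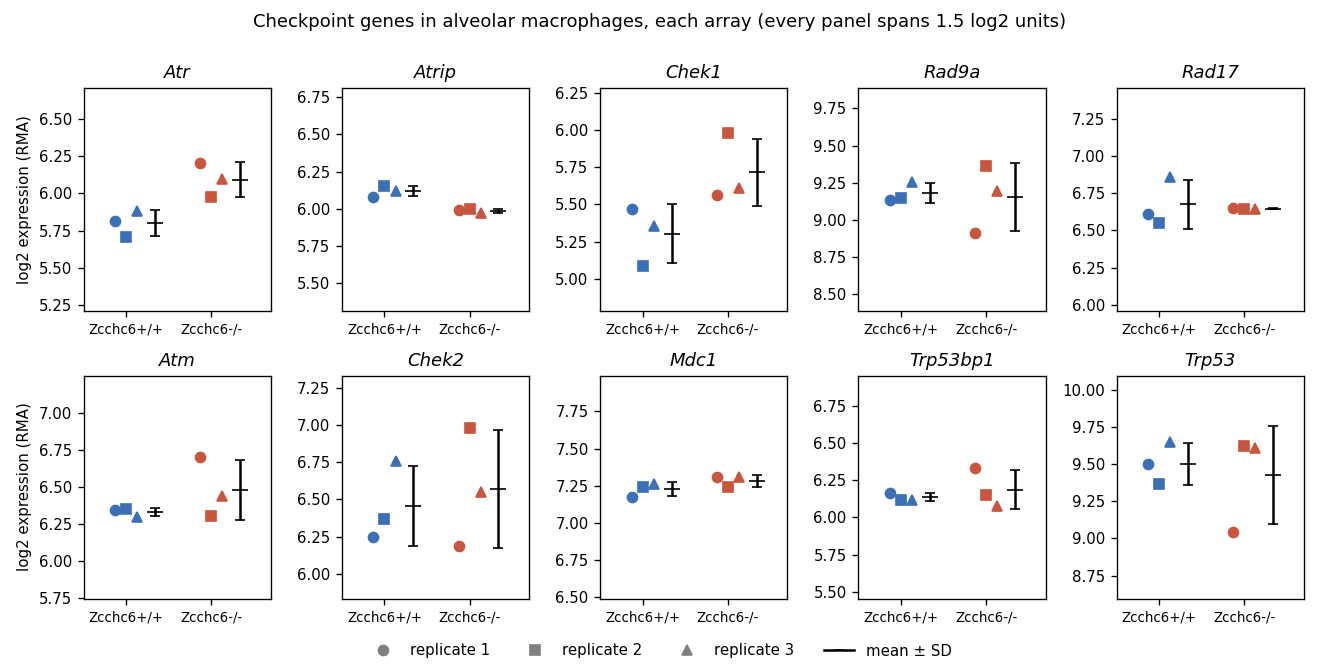
Log2 RMA expression of the 10 checkpoint genes in each of the 3 Zcchc6+/+ (blue) and 3 Zcchc6-/- (red) arrays, with marker shapes for the replicate number and black bars for the mean ± SD, all panels spanning the same range of the log2 axis. Atr and Chek1 lie higher and Atrip lower in all 3 Zcchc6-/- arrays, and the other 7 genes overlap.

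Rad9a and Rad17, which encode a subunit of the 9-1-1 clamp and the subunit of its loader, had log2 fold changes near 0. Rad9a read 9.13, 9.15 and 9.26 in Zcchc6+/+ against 8.91, 9.36 and 9.19 in Zcchc6-/- arrays, the latter holding both the lowest and the highest of the 6 values. Its log2 fold change was -0.025 (SE 0.13, 95% interval -0.34 to 0.29, adjusted p = 0.999 from limma), and without Zcchc6-/- replicate 1 it was 0.097. The Rad9a locus overlaps Ppp1ca, a phosphatase gene, in the RefSeq table. Rad17 read 6.61, 6.55 and 6.86 in Zcchc6+/+ against 6.65 in each Zcchc6-/- array, so the single high array was wildtype. The Rad17 log2 fold change was -0.028 (SE 0.11, 95% interval -0.29 to 0.24, adjusted p = 0.998 from limma), and it was 0.065 without that Zcchc6+/+ replicate 3.

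Atm, the kinase gene of the double-strand break branch, read 6.35, 6.35 and 6.30 in Zcchc6+/+ against 6.70, 6.30 and 6.44 in Zcchc6-/- macrophages. The Zcchc6-/- arrays spread widely around a tight wildtype group, with replicate 1 the highest of all. The log2 fold change was 0.15 (SE 0.13, 95% interval -0.14 to 0.44, adjusted p = 0.997 from limma). Without Zcchc6-/- replicate 1, in which T cell markers were high, the Atm log2 fold change was 0.039. The part of that cell type in the value was not tested.

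Mdc1 and Trp53bp1, which encode the mediators that assemble on broken chromatin, were among the steadiest of the set in the Zcchc6+/+ arrays. Mdc1 read 7.17, 7.24 and 7.26 in Zcchc6+/+ against 7.31, 7.24 and 7.31 in Zcchc6-/- arrays, which overlapped. Its log2 fold change was 0.058 (SE 0.094, 95% interval -0.16 to 0.28, adjusted p = 0.998 from limma), the narrowest interval among the 10 genes after Atrip. Trp53bp1 read 6.17, 6.12 and 6.12 against 6.33, 6.15 and 6.08 in Zcchc6-/- arrays, with a log2 fold change of 0.053 (SE 0.11, limma adjusted p = 0.998). Without Zcchc6-/- replicate 1 the Trp53bp1 log2 fold change was -0.020. In the RefSeq table Trp53bp1 overlaps Tubgcp4 and Map1a.

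Chek2, the effector kinase gene downstream of Atm, varied most within each genotype. It read 6.24, 6.37 and 6.76 in Zcchc6+/+ against 6.19, 6.98 and 6.55 in Zcchc6-/- arrays, where the wildtype range lay inside the Zcchc6-/- range. The log2 fold change was 0.11 (SE 0.22, 95% interval -0.41 to 0.63, adjusted p = 0.998 from limma). Leaving out Zcchc6-/- replicate 1 gave 0.30 and leaving out Zcchc6-/- replicate 2 gave -0.092, so a single array set the direction of Chek2.

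Trp53, which encodes the transcription factor p53, read 9.50, 9.36 and 9.65 in Zcchc6+/+ against 9.05, 9.63 and 9.61 in Zcchc6-/- arrays. Only Zcchc6-/- replicate 1 lay outside the wildtype range. The means were 9.50 ± 0.14 (SD, n = 3) and 9.43 ± 0.33 (SD, n = 3), which gave a log2 fold change of -0.077 (SE 0.18, 95% interval -0.49 to 0.34, adjusted p = 0.998 from limma), and without that array the Trp53 log2 fold change was 0.11. RefSeq lists a pseudogene, Trp53-ps, and how far the probes tell it from Trp53 was not examined.

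**Figure D2:**
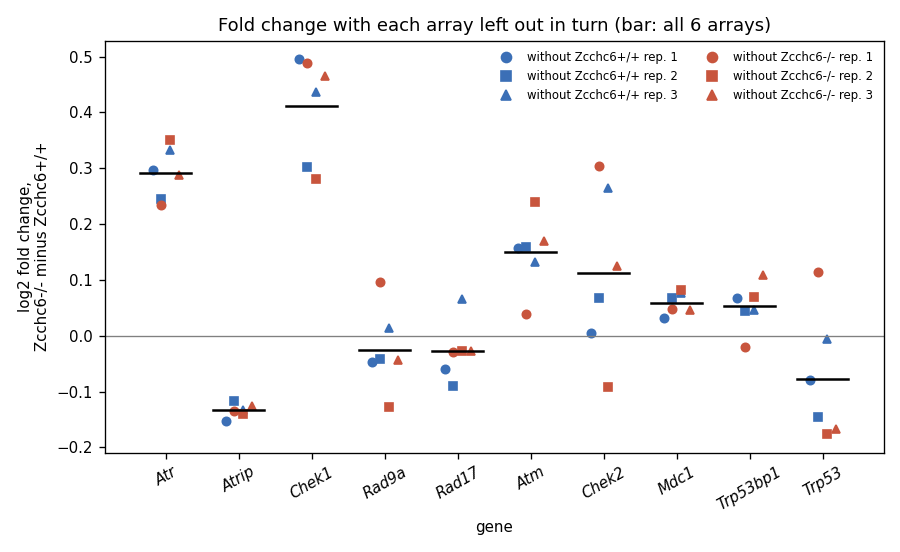
Log2 fold change of each checkpoint gene, Zcchc6-/- minus Zcchc6+/+, with all 6 arrays (black bars) and with each array left out in turn (symbols, blue for a Zcchc6+/+ array and red for a Zcchc6-/- array left out). Atr, Chek1, Atm and Mdc1 stay above 0 and Atrip below it, whereas Chek2, Trp53, Trp53bp1, Rad9a and Rad17 cross 0 for at least 1 array. For Atr, Chek1 and Atrip the side was fixed in advance, since their genotypes do not overlap.

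Zcchc6-/- replicate 1 held the highest of the 6 values for 3 of the genes, Atm, Atr and Trp53bp1, and the lowest for 3 others, Chek2, Trp53 and Rad9a. Set against the mean of the other Zcchc6-/- arrays it lay 0.33 higher in Atm and 0.22 higher in Trp53bp1 on the log2 scale. The same differences were -0.58 for Chek2, -0.57 for Trp53 and -0.36 for Rad9a. The array thus moved both ways within the set. It was also the single array with a high average of the T cell markers and the one with the widest spread, and their part in these values was not tested. Without Zcchc6-/- replicate 1, Atr, Chek1 and Atrip were the genes whose genotypes did not overlap, 3 of 10 against 21% of all genes for 3 arrays against 2. That these 3 remained was fixed in advance, since groups that do not overlap cannot come to overlap when an array is left out. The median of the 10 log2 fold changes without Zcchc6-/- replicate 1 was 0.072.

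The other genes of the replication stress branch were read from the same fit. This list and those below were chosen with earlier results of these data known, so their counts beside all genes only describe them. Of 9 genes of ATR activation and fork protection, 0 passed an adjusted p of 0.05, 8 had the higher mean in Zcchc6-/- cells and the median log2 fold change was 0.24. The genotypes did not overlap for 7 genes on the higher side and 1 on the lower side, against 5.03% and 5.15% of all genes, and 5 of the 9 had an unadjusted p under 0.05, against 5.03%. Clspn, the adaptor through which ATR reaches CHK1, read 5.24, 5.30 and 5.35 in Zcchc6+/+ against 5.82, 5.53 and 6.05 in Zcchc6-/- arrays. Its groups were separate, with a log2 fold change of 0.51 (SE 0.14, limma adjusted p = 0.902). Etaa1, which encodes an activator of ATR that binds replication protein A, read 5.64, 5.43 and 5.51 against 5.87, 6.06 and 5.82, with a log2 fold change of 0.39 (SE 0.11, limma adjusted p = 0.902).

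Rpa2, a subunit of replication protein A, had a log2 fold change of 0.30 (SE 0.10, limma adjusted p = 0.953). Topbp1, the ATR activator that the 9-1-1 clamp engages, and Timeless, of the fork protection complex, were named after their values were seen, with log2 fold changes of 0.24 and 0.32 (both with an adjusted p of 0.981). The exception in this group, also named after its value was seen, was Rpa3, the smallest subunit of replication protein A, with a log2 fold change of -0.25 (SE 0.12, limma adjusted p = 0.997). The genes around the kinase thus mostly read on the same side as Atr and Chek1 and opposite to Atrip, none of them past the threshold. Whether the group differs from other genes was not tested.

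Among the 8 genes of the 9-1-1 clamp and its loader beside Rad9a and Rad17, 0 passed, 6 had a higher mean and the median log2 fold change was 0.13. The smallest p-values belonged to the loader subunits Rfc3, Rfc4 and Rfc2, with log2 fold changes of 0.35, 0.30 and 0.14 (limma adjusted p = 0.997 for all). These subunits also load the replication clamp in every S phase. The genotypes did not overlap for 2 of the 8 genes, Rfc2 and Rfc5, against 10.2% of all genes, with Rfc5 named after its values were seen.

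Of 6 genes that act on Cdk1 and Cdk2 downstream of the checkpoint kinases, all had a higher mean, 0 passed and the median log2 fold change was 0.16. The genotypes did not overlap for 2 of the 6, against 10.2% of all genes. Cdc25c, a phosphatase that CHK1 restrains, read 4.25, 4.35 and 4.19 in Zcchc6+/+ against 4.51, 4.82 and 4.64 in Zcchc6-/- arrays. All its Zcchc6+/+ values lay below the median of the table, 4.41. The groups were separate, with a log2 fold change of 0.39 (SE 0.12, limma adjusted p = 0.902). Wee1, the kinase that opposes Cdc25c, had a log2 fold change of 0.41 without overlap (limma adjusted p = 0.973), and Cdc25a had 0.19 (limma adjusted p = 0.997). Activators and inhibitors of the Cdks therefore stood on the same side. Leaving out Zcchc6-/- replicate 2 lowered the Cdc25a log2 fold change to 0.071, and leaving out Zcchc6-/- replicate 1 raised the median of the list to 0.28.

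In the double-strand break branch, 8 of 11 further genes had a higher mean, 0 passed and the median log2 fold change was 0.071. The genotypes did not overlap for 4 genes on the higher side and 1 on the lower side, against 5.03% and 5.15% of all genes. Rif1, which works with 53BP1 at breaks and also times DNA replication, read 6.0, 5.90 and 6.18 in Zcchc6+/+ against 6.59, 6.42 and 6.51 in Zcchc6-/- arrays. It had the largest fold change of this list, 0.48 on the log2 scale (SE 0.11, limma adjusted p = 0.808), with no overlap. Rad50, a subunit of the break sensor with Mre11, and H2afx, whose histone is marked around breaks, each had a log2 fold change of 0.19 without overlap (limma adjusted p = 0.997 each).

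**Figure D3:**
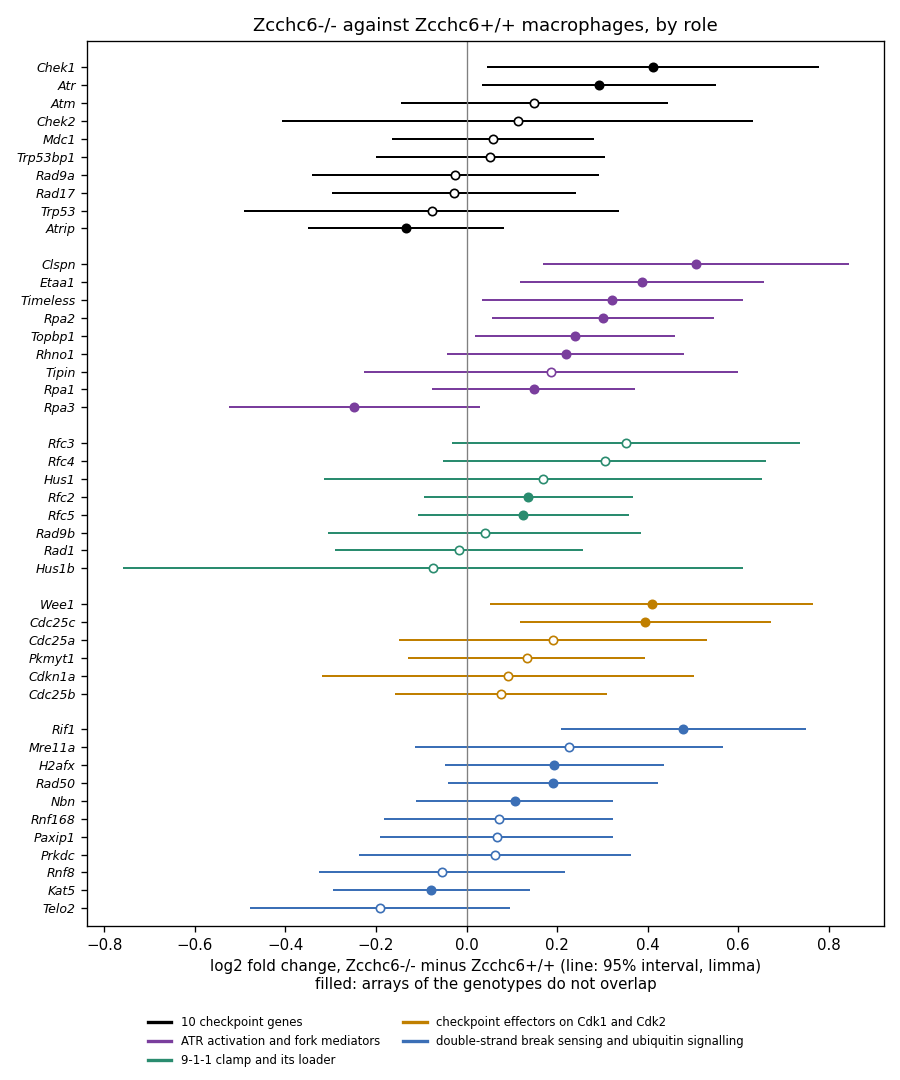
Log2 fold change, Zcchc6-/- minus Zcchc6+/+, with its 95% interval from limma, for the 10 checkpoint genes and the further genes of the replication stress, Cdk and double-strand break lists, grouped by role, where filled points mark genes whose arrays do not overlap between genotypes. Most ATR mediators lie to the right of 0, from Clspn at 0.51 to Rpa3 at -0.25, and most intervals among the 10 checkpoint genes include 0.

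The p53 arm was read as a list of regulators and a list of targets. Of 7 regulators of p53, 4 had a higher mean, 0 passed and the median log2 fold change was 0.085. The genotypes did not overlap for 2 of the 7, Usp28 and Usp7, against 10.2% of all genes. Usp28, a deubiquitinase that binds 53BP1, Usp7, which deubiquitinates Mdm2 and p53, and Rfwd2 (Cop1), a ubiquitin ligase of p53, had log2 fold changes of 0.18, 0.12 and 0.085 (limma adjusted p = 0.997, 0.997 and 0.998). Among 18 targets of p53, 7 had a higher and 11 a lower mean, 0 passed and the median log2 fold change was -0.0095. That median was 0.080 without Zcchc6-/- replicate 1. The genotypes did not overlap for 2 of the 18 targets, Phlda3 and Trp53inp1, against 10.2% of all genes. The target with the smallest p was Phlda3, which restrains the kinase Akt, at 7.37, 7.27 and 7.53 in Zcchc6+/+ against 6.86, 6.69 and 6.56 in Zcchc6-/- arrays. Its log2 fold change was -0.69 (SE 0.12, limma adjusted p = 0.610), while Trp53inp1, a stress-induced partner of p53, had 0.50 (0.25 without Zcchc6-/- replicate 1) and Gadd45a, an inducer of arrest, had -0.22 (adjusted p = 0.997 each).

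Several of these genes are known to be transcribed mostly in cycling cells, and proliferation markers were read from the same fit. The mean of each of the 20 such markers was higher in Zcchc6-/- cells, against 48.2% of all genes, with a median log2 fold change of 0.47. The genotypes did not overlap for 17 of them, against 10.2% of all genes, and 0 passed the threshold. These markers too were chosen with earlier results of these data known. As an average over the list, the arrays stood at -0.11, 0.024 and 0.090 in Zcchc6+/+ against 0.44, 0.43 and 0.49 in Zcchc6-/-, relative to the wildtype mean. Mki67 read 8.81, 8.82 and 8.84 against 9.39, 9.15 and 9.42 (log2 fold change 0.50, adjusted p = 0.774 from limma), and Top2a had a log2 fold change of 0.51 (adjusted p = 0.855). The part of the cycling share in the Atr, Chek1 and Clspn values was not tested. The marker lists of other cells were not uniform either, since the 6 airway epithelial markers averaged -0.17, 0.24 and -0.073 in Zcchc6+/+ arrays but 0.56, 0.70 and -8.2e-05 in Zcchc6-/- arrays. The alveolar macrophage markers averaged -0.053, 0.029 and 0.023 in Zcchc6+/+ against -0.096, -0.26 and -0.26 in Zcchc6-/- arrays on the same scale. Of these 12 markers, 1 was higher and 4 were lower without overlap, against 5.03% and 5.15% of all genes. The 7 neutrophil markers averaged -0.017, -0.041 and 0.057 against -0.028, 0.10 and 0.32. The genes of this list given here were named after their values were seen. Cxcr2 had a log2 fold change of 1.09 without overlap, Csf3r 0.63 and Mmp8 -0.63. S100a8 had -0.24 and Ly6g 0.10, with readings of at most 4.23 and 2.63 on any array. The 6 B cell markers had a median log2 fold change of -0.0080. The part of these lists in the checkpoint values was not tested.

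**Figure D4:**
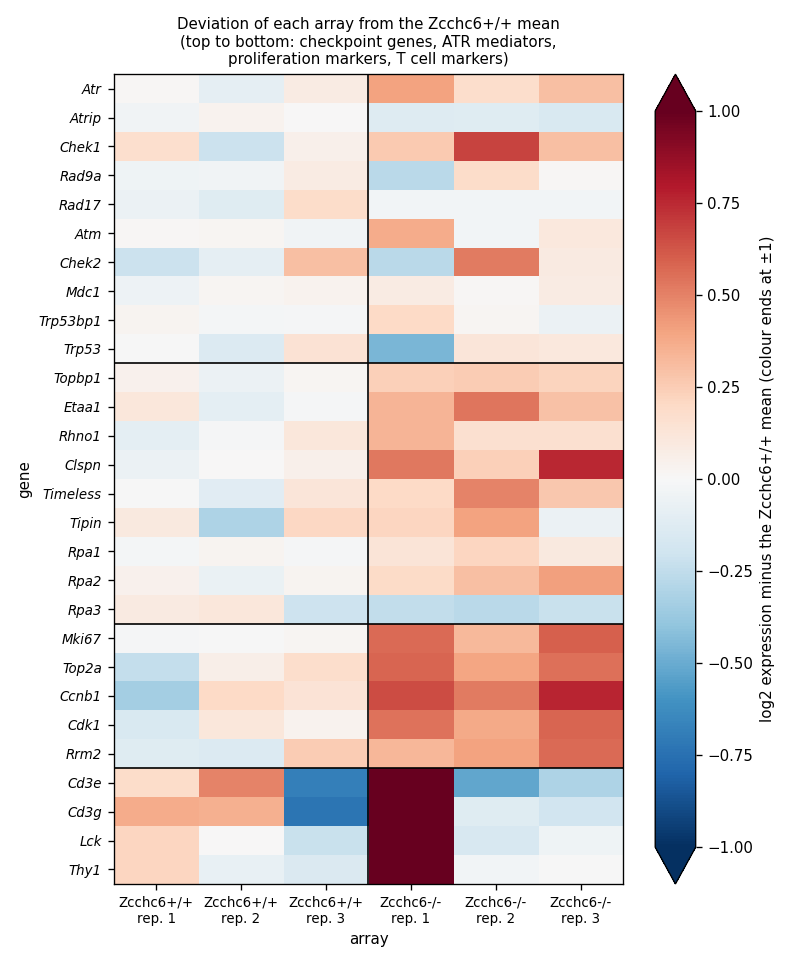
Log2 expression of each gene minus its Zcchc6+/+ mean, in each of the 6 arrays (columns), for the 10 checkpoint genes, 9 ATR mediators, 5 of the proliferation markers and 4 of the T cell markers (rows, top to bottom), with the colour scale ending at 1 either way. The proliferation markers shown and most ATR mediators are raised in all 3 Zcchc6-/- columns. Among the Zcchc6-/- columns, the 4 T cell markers shown are raised in replicate 1 alone, and most checkpoint genes show no common colour.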

How the data were processed

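Total RNA of lavage macrophages from 3 Zcchc6+/+ and 3 Zcchc6-/- samples was hybridized to Affymetrix Mouse Gene ST arrays. The authors deposited log2 expression values per gene, made by RMA with affy 1.36.1 in R 2.15.1 and a Brainarray mapping of probes to Entrez Gene identifiers. For that mapping, the genome build was not given in the sources used here. RMA removes a shift shared by most genes and understates changes near the floor. Identifiers were named through the RefSeq gene table of GRCm38.p6, which held 23740 of the 25206 genes. Trp53 was named through that table alone.

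Groups and replicate numbers came from the sample titles. All genes were fitted together in limma 3.58.1 (R 4.3.3, lmFit and eBayes, no covariates, no filter), as Zcchc6-/- minus Zcchc6+/+, with 4 residual degrees of freedom, 3.47 from the prior, and Benjamini-Hochberg adjustment over all genes. The number of arrays limits the precision, and an exact permutation test of 3 against 3 could not give a p under 0.1. At most 0.298% of values were identical in any pair of arrays. The procedure was tested on simulated data, where recovery was required only for an effect far larger than those of the 10 genes. The members and the 12 gene lists were chosen with earlier results of these data known. Besides the 10 genes, the text names the 3 genes with the smallest p of each of 6 pathway lists, Zcchc6, Xist, Mki67, Top2a, Cd3e and Cd3g, with exceptions stated. Alternatives covered the variance model, moderation, array weights, a filter on dim genes, normalization, a replicate block, Xist as a covariate, and each array left out.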

Additional observations from a re-analysis of the deposited data

How the results depend on the processing

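Under 9 other settings and with each of the 6 arrays left out, 0 of the 10 genes passed an adjusted p of 0.05, and the lowest adjusted p of any of them was 0.630, for Atr with array weights. Over all genes 0 passed, except 1 without Zcchc6-/- replicate 1 (range 0 to 1). The count with a higher mean ranged from 5 to 8 and the median log2 fold change from 0.018 to 0.077 with arrays left out. Directions of 5 genes, Atr, Atrip, Chek1, Atm and Mdc1, held throughout. With arrays left out this was fixed in advance for Atr, Atrip and Chek1, whose genotypes do not overlap. Settings that change only the variance leave fold changes as they are. With array weights, the log2 fold changes of Trp53, Trp53bp1 and Rad9a turned to 0.033, -0.0018 and 0.015, and the p53 target median to 0.024. Rad9a turned to 0.00047 with a second quantile normalization, and the p53 target median to 0.0075 with array medians centred. With arrays left out, the ranges were -0.092 to 0.30 for Chek2, -0.18 to 0.11 for Trp53, -0.020 to 0.11 for Trp53bp1, -0.13 to 0.097 for Rad9a, -0.090 to 0.065 for Rad17 and -0.15 to 0.080 for the p53 target median. They were -0.42 to 1.54 for Cd3e and -0.16 to 1.89 for Cd3g, both low without Zcchc6-/- replicate 1. The cause was not tested. Deviations of same-numbered samples correlated at 0.090, -0.23 and 0.046. These values cannot decide whether the numbers pair the arrays, since deviations of 3 arrays from their own mean depend on each other. With a replicate block 0 genes passed, and the median was 0.055, as such a block leaves fold changes unchanged by design. Genes whose genotypes did not overlap numbered 3 to 5 of the 10 with arrays left out, an alternative chosen after seeing the data, against 17.6% to 22.1% of all genes. This count could only stay or rise, since groups that do not overlap stay apart with fewer arrays.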
